A study of Mus musculus with 13 samples.

Results

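Natriuretic peptides and their receptors were followed through mouse heart development as a family of 6 genes, 3 for the peptides (Nppa, Nppb and Nppc) and 3 for the receptors (Npr1, Npr2 and Npr3), taken by symbol from the 27998 genes of each single-cell matrix. All animals were wild-type C57Bl/6J mice without treatment. E8.5 and E10.5 samples were whole embryos from which head and limbs had been cut, and the samples from E12.5 onwards (E12.5, E14.5, E16.5 and day 3 after birth, P3) were hearts. Each of the middle 4 stages had 2 libraries, while E8.5 (replicate 2) and P3 gave 1 matrix each and therefore enter no test. The matrix of E16.5 replicate 1, counted as 1 library, belongs to 2 records of that stage. The P3 matrix pools 2 records whose barcodes end in 1 or 2, and no label ties an ending to a record. Pools of embryos per library are not given in the sources used here.

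Droplet sequencing tags each captured transcript with a unique molecular identifier (UMI), and levels are given here in CPM, the UMIs of a gene scaled to a total of 1000000, summed over all barcodes of a class in a library. Only barcodes with at least 2000 UMIs were used. Myocyte barcodes had Tnnt2, Actn2 and Ttn at 1000 CPM or more together. They were called ventricular where Myl2 reached 1000 CPM and at least the Myl7 level divided by 2, and atrial where Myl7 reached 1000 CPM and Myl2 stayed below Myl7 divided by 10. Endothelial barcodes had at least 3 UMIs of Pecam1, Cdh5 and Egfl7 together, and barcodes that passed both gates were left out of both. No member of the family was used in any gate.

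Atrial natriuretic peptide (Nppa) and brain natriuretic peptide (Nppb) are hormones of heart muscle that lower blood pressure and volume, and C-type natriuretic peptide (Nppc) is a local signal best known from endothelium and growing cartilage. Npr1, the receptor of the first pair, and Npr2, the receptor of C-type peptide, are guanylyl cyclases that make cGMP when a peptide binds. Npr3 has no cyclase part and is known as the clearance receptor, because it takes peptides out of the extracellular space. In the embryo Nppa is a long-used mark of the working chamber myocardium, and its absence a mark of slowly conducting myocardium.

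By the GENCODE vM21 annotation of GRCm38, Nppb (chr4:147985788-147987205) and Nppa (chr4:148000722-148002079) lie one after the other on the plus strand, with 13516 bases between the end of Nppb and the start of Nppa. Npr2 is on the same chromosome (chr4:43631935-43651244, plus strand), Npr1 on chr3:90450591-90465866, Nppc on chr1:86666291-86670571 and Npr3 on chr15:11839896-11907287, the last 3 on the minus strand. The 250 bases before the Nppa start, and 30 bases around a pair of GATA motifs of Nppb, are shown because the transcription factors described with the peptide genes are known to act there. The sequences are from RefSeq (GRCm38.p6, plus strand, 5′ to 3′). Capitals mark a T-box motif (AGGTGTGA or TCACACCT), NK2 motifs (AAGTG or CACTT) and GATA motifs (GATAA or TTATC), searched on both strands.
Nppa, chr4:148000472-148000721: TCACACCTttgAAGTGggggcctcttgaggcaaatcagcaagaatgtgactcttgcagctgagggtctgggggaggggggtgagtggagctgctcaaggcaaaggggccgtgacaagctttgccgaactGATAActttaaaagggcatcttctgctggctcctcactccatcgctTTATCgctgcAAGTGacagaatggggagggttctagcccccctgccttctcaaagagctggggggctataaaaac
Nppb, chr4:147985799-147985828: tgcagctGATAAatcagaGATAAccccacc

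All 6 members were found in the RefSeq promoter table. In the Nppa window the T-box motif began 250 bases before the RefSeq start, the NK2 motifs 239 and 65 bases and the GATA motifs 121 and 75 bases before it. The Nppb stretch carried GATA motifs 94 and 83 bases before the RefSeq start, in bases that GENCODE places in the first exon. Of 32851 promoter windows of 250 bases, 1.12% held the T-box letters, 40.7% the NK2 letters and 22.6% the GATA letters. The Nppb window held no T-box or NK2 letters, and the windows of Nppc, Npr1, Npr2 and Npr3 held none of the letters searched. These are matches of letters in a window, not measured sites.

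The libraries held 4928 to 14675 barcodes of at least 2000 UMIs, with a median of 10268 to 24516 UMIs. The tested heart libraries held 222 to 412 atrial, 2218 to 3645 ventricular and 413 to 1129 endothelial barcodes, and the E10.5 libraries 98 atrial barcodes each and only 34 and 41 ventricular ones. Barcode sequences shared by a pair of libraries numbered at most 264, where the sizes of the lists alone give 284. The chamber check genes were not used in the gates, but they were chosen with earlier results of these data known. Their directions therefore describe the classes and are not independent support for the names. All 5 atrial check genes (Sln, Myl4, Nr2f1, Tbx5 and Stard10) were higher in atrial barcodes at the mean of the 3 tested heart stages (E12.5 to E16.5), and all 5 ventricular ones (Myl3, Irx4, Hey2, Mpped2 and Myh7) were lower. Sln, at 231 to 4501 CPM in atrial barcodes of these hearts, was at 0.709 and 4.56 CPM at E10.5, so that the E10.5 atrial barcodes are Myl7-rich, Myl2-poor early myocytes. The P3 matrix had been filtered before deposit and holds no barcodes of 10 to 100 UMIs, which elsewhere served as the measure of free RNA.

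Among the members with enough UMIs for a fold in both chambers, Nppa was the gene whose chamber pattern changed most. In atrial barcodes it stood at 559 and 542 CPM at E10.5, 2842 and 2112 CPM at E12.5, 3431 and 3763 CPM at E14.5, and 11660 and 11541 CPM at E16.5. In ventricular barcodes it stood at 1601 and 325 CPM at E10.5, 2715 and 2243 CPM at E12.5, 627 and 652 CPM at E14.5, and 628 and 684 CPM at E16.5. At E12.5 the chambers overlapped, and at E14.5 and E16.5 every atrial library lay far above every ventricular one. The atrial minus ventricular difference on the log2 scale was -0.20 (SE 0.13, adjusted p = 0.254) at E12.5, 2.31 (SE 0.14, adjusted p = 1.31e-13) at E14.5 and 3.93 (SE 0.15, adjusted p = 2.06e-18) at E16.5. The difference grew by 4.13 (SE 0.19, adjusted p = 1.19e-14) between E12.5 and E16.5, a comparison in which 12.9% of 13532 genes passed the test. Nppa and Nppb were the 2 members that passed it.

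**Figure D1:**
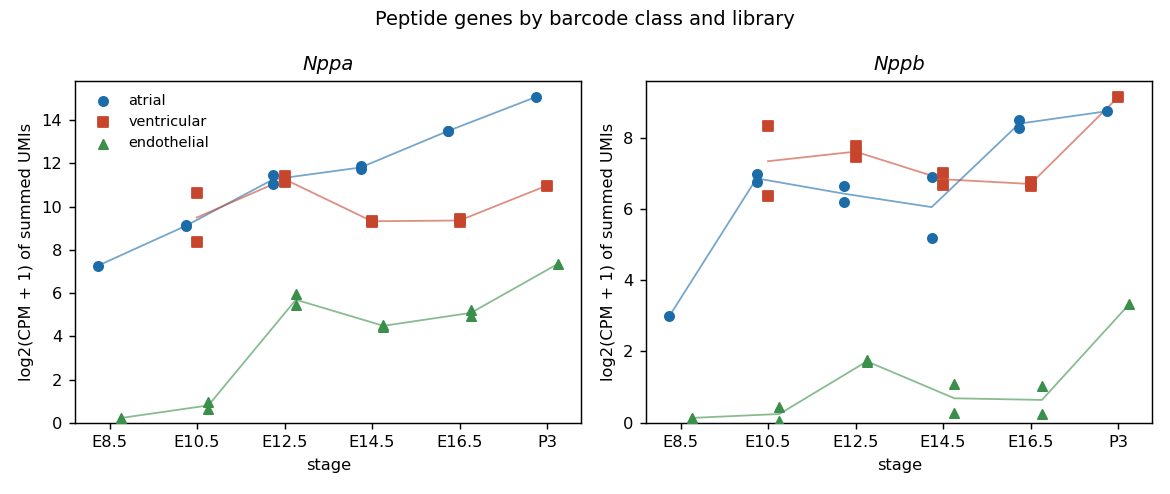
Nppa and Nppb levels by stage, as log2(CPM + 1) of UMIs summed over atrial (circles), ventricular (squares) and endothelial (triangles) barcodes. Each point is 1 library (P3 and E8.5 have 1 matrix each, and sums of fewer than 20 barcodes are not drawn), and lines join stage means. Atrial Nppa climbs at each stage up to 34330 CPM at P3, while ventricular Nppa drops from 2715 and 2243 CPM at E12.5 to 627 and 652 CPM at E14.5.

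The E12.5 difference depended on the processing. It was -0.71 (adjusted p = 0.000301) with the loose chamber rule, which leaves no gap between the chambers, and 0.32 (adjusted p = 0.0951) under the mitochondrial ceilings of the study. It passed as lower with no filter on low counts (-0.25, adjusted p = 0.00688) and without E12.5 replicate 1 (-0.28, adjusted p = 0.0378). At the mean of the 3 heart stages Nppa was higher in atrial barcodes by 2.01 (SE 0.08, adjusted p = 2.36e-18). In this mean comparison 50.8% of all genes passed the test, and 3 of the 6 members did, all of them higher in atrial barcodes. The share passing was 34.3% at E12.5, 30.7% at E14.5 and 34.3% at E16.5.

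Between neighbouring stages, atrial Nppa rose by 2.11 (SE 0.11) from E10.5 to E12.5, by 0.54 (SE 0.10) from E12.5 to E14.5 and by 1.85 (SE 0.10) from E14.5 to E16.5, with adjusted p of 1.09e-14, 0.000765 and 1.21e-13. Among all genes 33.2%, 7.68% and 12.2% passed these tests. Ventricular Nppa rose by 1.59 (SE 0.31, adjusted p = 0.00105) from E10.5 to E12.5, fell by 2.00 (SE 0.30, adjusted p = 1.78e-05) to E14.5 and differed by 0.22 (SE 0.29, adjusted p = 0.579) at E16.5, a step that passed under the mitochondrial ceilings (0.42, adjusted p = 0.0120). The background shares were 15.9%, 37.5% and 40.4%. The first of these rises did not pass with DESeq2 (adjusted p = 0.0932), and it was 3.05 without E10.5 replicate 1 and 0.90 without E10.5 replicate 2. The atrial step from E12.5 to E14.5 was 0.79 without E12.5 replicate 1 and 0.33 without E12.5 replicate 2, and passed in both. E10.5 samples were embryos and E12.5 samples hearts, so stage and preparation cannot be told apart in the earliest step.

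The fall in ventricular Nppa was also a fall in the share of positive barcodes. After each barcode was thinned to 2000 UMIs, 44.6% and 44.0% of ventricular barcodes at E12.5 had an Nppa UMI, against 21.5% and 22.5% of them at E14.5 and 19.9% and 19.1% of them at E16.5. Atrial shares went the other way, from 57.5% and 56.6% to 60.8% and 63.5% and then 75.5% and 80%. Because ventricular barcodes were more numerous, they held 83.4% and 83.9% of all Nppa UMIs at E12.5 and still 63.8% and 67.1% at E14.5. At E16.5 their part was 36.2% and 37.5%, and atrial barcodes held 57.0% and 59.5%. The larger source of Nppa transcripts in the sampled heart thus passed from ventricular to atrial barcodes between E14.5 and E16.5.

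At P3 the atrial level was 34330 CPM (95% exact Poisson interval 34245 to 34416, counting error only) and the ventricular level 2011 CPM (2002 to 2020). The barcodes ending in 1 and in 2 differed: ventricular Nppa was 2564 CPM in the first and 494 CPM in the second, and atrial Nppa 39095 and 26018 CPM. At P3, then, atrial Nppa lay above all embryonic libraries in both sets of barcodes, whereas the ventricular level was above the E16.5 libraries in one set and below them in the other. Ventricular barcodes held 22.5% and atrial barcodes 75.0% of the Nppa UMIs. At E8.5, 79 myocyte barcodes met the atrial gate, only 9 the ventricular gate and 53 neither. The 79 barcodes that met the atrial gate had Nppa at 153 CPM (136 to 173) and the 53 that met neither chamber gate had it at 979 CPM (921 to 1040).

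Nppb shared the late atrial rise, after a ventricular excess at E12.5. In atrial barcodes it stood at 106 and 124 CPM at E10.5, 99.4 and 72.4 CPM at E12.5, 35.5 and 119 CPM at E14.5, and 362 and 309 CPM at E16.5. In ventricular barcodes it stood at 80.6 and 319 CPM at E10.5, 214 and 175 CPM at E12.5, 100 and 127 CPM at E14.5, and 99.01 and 107 CPM at E16.5. The chambers overlapped at E10.5, ventricular libraries were the higher ones at E12.5, the chambers overlapped again at E14.5, and both atrial libraries were the higher ones at E16.5.

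The chamber difference of Nppb was -1.38 (SE 0.23, adjusted p = 2.15e-05) at E12.5, -0.87 (SE 0.26, adjusted p = 0.0110) at E14.5 and 1.49 (SE 0.21, adjusted p = 2.34e-06) at E16.5. It shifted by 2.88 (SE 0.31, adjusted p = 1.50e-07) between E12.5 and E16.5. The E14.5 call rested on 1 library: without E14.5 replicate 1, whose atrial barcodes had 35.5 CPM, the difference was -0.27 (adjusted p = 0.458), and DESeq2 gave no call there or at E12.5 (adjusted p = 0.440 and 0.0501). Over the 3 stages the mean difference was -0.25 (SE 0.13, adjusted p = 0.122), and with the library as a block it was -0.27 (adjusted p = 0.00172). It also passed with the loose chamber rule (-0.52, adjusted p = 0.00153), with no filter (-0.31, adjusted p = 4.69e-08), with barcodes under 1% mitochondrial UMIs left out (-0.35, adjusted p = 0.0420) and without E14.5 replicate 2 (-0.52, adjusted p = 0.000110), while over all fits with 1 library left out it ranged from -0.52 to -0.056, the latter without E14.5 replicate 1. Such a mean joins stages of opposite sign.

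**Figure D2:**
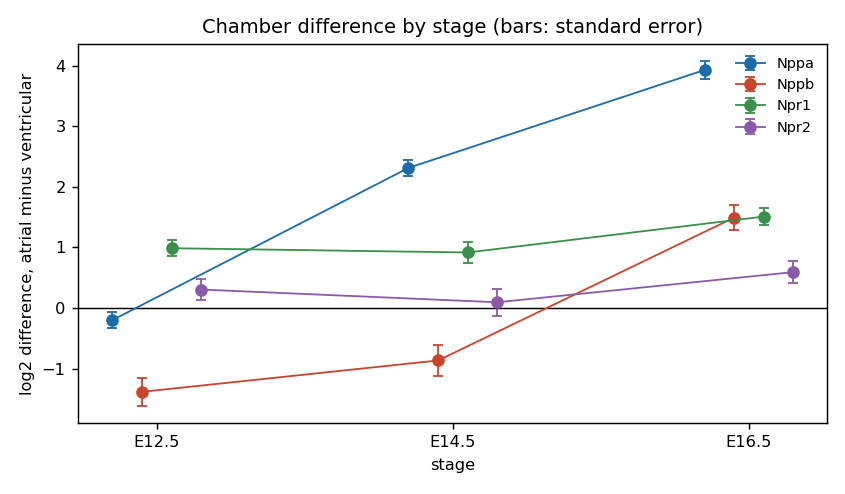
Atrial minus ventricular log2 difference of Nppa, Nppb, Npr1 and Npr2 at E12.5, E14.5 and E16.5 from the edgeR fit, with bars of 1 standard error and 2 libraries per stage. Nppa goes from -0.20 to 3.93 and Nppb from -1.38 to 1.49, whereas Npr1 is near 1 at E12.5 and E14.5 (0.99 and 0.92) and at 1.51 at E16.5.

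Atrial Nppb rose by 2.40 (SE 0.24, adjusted p = 2.40e-08) from E14.5 to E16.5 and did not pass in the earlier steps as fitted. The E12.5 minus E10.5 step did pass under the mitochondrial ceilings (-1.15, adjusted p = 0.00420), the loose chamber rule (-1.01, adjusted p = 0.00496), the myocyte gate at 2000 CPM (-0.90, adjusted p = 0.0166) and with no filter on low counts (-0.41, adjusted p = 0.00826), and without E14.5 replicate 1 (-0.47, adjusted p = 0.0170) or E14.5 replicate 2 (-0.47, adjusted p = 0.0181). The E14.5 minus E12.5 step passed without E14.5 replicate 2 (-1.27, adjusted p = 2.66e-05) and was 0.48 (adjusted p = 0.157) without E14.5 replicate 1. Ventricular Nppb fell by 0.83 (SE 0.19, adjusted p = 0.00154) from E12.5 to E14.5, a call that DESeq2 (adjusted p = 0.363) and the mitochondrial ceilings (-0.22, adjusted p = 0.132) did not give. From E10.5 to E12.5 the ventricular difference was 0.14 (SE 0.28, adjusted p = 0.784), and it turned on which E10.5 library was used, being -0.60 (adjusted p = 0.0657) without replicate 1 and 1.54 (adjusted p = 0.000986) without replicate 2. Under the mitochondrial ceilings it passed in the opposite direction (-1.48, adjusted p = 0.000315). Ventricular barcodes held 12.6% and 36.1% of the Nppb UMIs at E10.5 and the larger part of them from E12.5 on, from 72.8% to 93.0% in the 6 tested heart libraries and 85.2% at P3. At P3 ventricular Nppb was 559 CPM (555 to 564) and atrial Nppb 426 CPM (416 to 435), with 648 and 315 CPM in the ventricular barcodes ending in 1 and 2. So the atrial excess of E16.5 was not seen in the pooled P3 matrix. The 315 CPM of the ventricular barcodes ending in 2 nevertheless lay below the pooled atrial level of 426 CPM. That atrial level joins both sets of barcodes, so the order of the chambers within a set is not given here.

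Within a chamber, Nppb was higher in barcodes with more Nppa. Barcodes were sorted by Nppa UMIs after thinning to 2000 UMIs, into those with 0, those with 1 to 2 and those with 3 or more. Among atrial barcodes without an Nppa UMI, Nppb was at 0 to 12.2 CPM in the 6 heart libraries, and among those with 3 or more it was at 73.4 to 573 CPM. Among ventricular barcodes it went from 58.9 to 91.5 CPM up to 266 to 498 CPM. The higher group exceeded the lower one in each of these libraries in both chambers. The ventricular barcodes with 3 or more Nppa UMIs made up 26.1% and 24.1% of the class at E12.5 and 8.20% and 8.78% at E16.5. Those without an Nppa UMI after thinning were 80.1% and 80.9% of the class at E16.5 and still had Nppb at 75.5 and 82.6 CPM.

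Some of the transcription factors known at the Nppa and Nppb locus differed between these groups in every heart library, and others did not. Tbx3, a T-box repressor of chamber genes that marks the conduction system, was at 47.2 and 45.9 CPM at E12.5, 63.6 and 62.2 CPM at E14.5, 18.9 and 23.0 CPM at E16.5 and 52.4 CPM at P3 in atrial barcodes without Nppa. In atrial barcodes with 3 or more Nppa UMIs it was at 0 to 2.29 CPM in the same 6 embryonic libraries and 1.33 CPM at P3. No library overlapped between the groups. Only a few chosen genes were summed in these groups, so the share of all genes that separate them in this way is not known. Atrial Gata4 was also lower in the Nppa-rich group in each embryonic library, from 79.5 to 57.7 CPM and from 100.3 to 73.0 CPM at E12.5, from 95.7 to 59.1 CPM and from 100.1 to 67.4 CPM at E14.5, and from 58.9 to 56.3 CPM and from 91.9 to 52.4 CPM at E16.5. Atrial Hand2 was lower in the Nppa-rich group in each of these libraries too, from 107 to 75.5 CPM in E12.5 replicate 1, for example. So was atrial Tbx5, from 104.8 to 104.6 CPM in E12.5 replicate 1 and from 172 to 104 CPM in E14.5 replicate 1. Tbx20, Srf and Tbx2 were not summed in these groups. The P3 groups pool both sets of barcodes. The atrial barcodes without Nppa made up 42.5% and 43.4% of the class at E12.5, 24.5% and 20% of it at E16.5 and 5.21% of it in the P3 matrix.

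**Figure D3:**
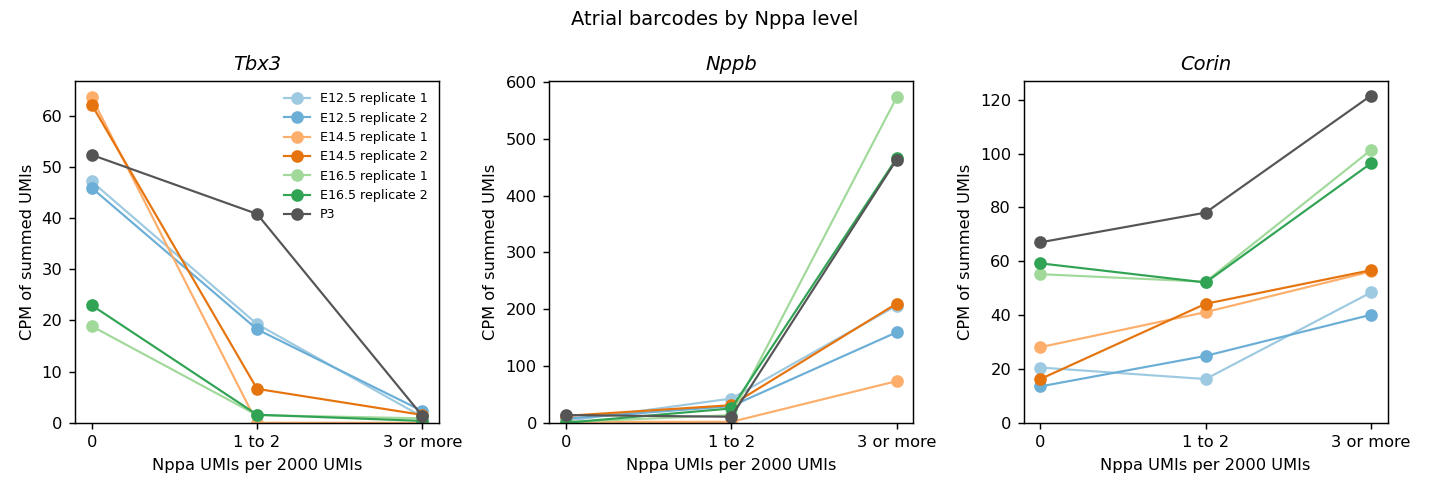
Levels of Tbx3, Nppb and Corin (CPM of summed UMIs) in atrial barcodes sorted by their Nppa UMIs per 2000 UMIs, 1 line per library. Tbx3 falls from 18.9 to 63.6 CPM in barcodes without Nppa to 0 to 2.29 CPM in those with 3 or more in the embryonic hearts, while Nppb and Corin are higher in the last group than in the first.

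The same sorting was applied to ventricular barcodes, where Hand2 had the same direction as in atrial ones and Tbx5 the opposite one. Hey2, a repressor of the compact ventricular wall, was lower where Nppa was high, at 55.5 against 29.2 CPM and 63.6 against 27.7 CPM at E12.5, 83.8 against 56.0 CPM and 86.2 against 43.7 CPM at E14.5, and 85.9 against 43.0 CPM and 84.0 against 37.6 CPM at E16.5. Tbx5, a T-box activator, went from 20.3 to 45.7 CPM and from 22.2 to 55.9 CPM at E12.5 and from 15.1 to 24.4 CPM and from 16.2 to 27.9 CPM at E16.5. Gja5, the connexin of trabecular and conducting myocytes, went from 16.6 to 73.7 CPM and from 16.9 to 86.7 CPM at E12.5. Each of the 6 embryonic heart libraries had these directions. Gata4 and Nkx2-5, activators at the locus, did not keep 1 direction in ventricular barcodes, nor did Tbx3, which was lower in the Nppa-rich group at E12.5 (7.39 against 2.51 CPM and 8.09 against 2.81 CPM) and higher in it at E16.5 (1.48 against 2.47 CPM and 1.29 against 2.21 CPM). Hand2 was lower in the Nppa-rich group in all 6 libraries, from 60.0 to 42.2 CPM in E12.5 replicate 1, for example. Ventricular Gata4 was at 58.8 against 57.0 CPM and 70.4 against 71.4 CPM at E12.5, and Nkx2-5 was lower in the Nppa-rich group at E12.5 (289 against 257 CPM and 295 against 261 CPM) and higher in it at E16.5 (165 against 192 CPM and 191 against 215 CPM). These are values over barcodes of a library, and no test was run on them. The share of all genes that keep 1 direction in every library was not counted either.

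Endothelial and mesenchymal-like barcodes held little of either myocyte peptide gene, once barcodes that also passed the myocyte gate were left out. Endothelial Nppa was 42.5 and 60.6 CPM at E12.5, 22.0 and 20.9 CPM at E14.5 and 36.0 and 30.2 CPM at E16.5, and mesenchymal-like Nppa was 51.4 and 66.0, 16.4 and 14.1, and 33.8 and 31.7 CPM. The ventricular levels lay above all of these, and the endothelial minus ventricular difference was -5.14 (SE 0.10, adjusted p = 3.43e-27). With the endothelial rule alone, which keeps the barcodes that pass both gates, the endothelial minus mesenchymal-like difference of Nppa was 2.57 (adjusted p = 8.08e-18), against 0.21 (adjusted p = 0.0962) as fitted. The fitted difference passed with no filter on low counts (0.22, adjusted p = 0.00230) and without E12.5 replicate 1 (0.23, adjusted p = 0.00482) or E12.5 replicate 2 (0.19, adjusted p = 0.0274). Free RNA, read from barcodes of 10 to 100 UMIs, had Nppa at 2283 and 2543 CPM at E12.5, 828 and 947 CPM at E14.5 and 1352 and 1392 CPM at E16.5, so it moved over the stages in the same order. Its share of an endothelial sum, from globin UMIs, was at most 4.23% and 4.41% at E12.5, 1.90% and 2.68% in the E14.5 libraries and 2.83% and 3.06% in those of E16.5. The product of level and share was not separated further from transcripts of the cells.

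Endothelial Nppa passed the test in both steps between heart stages, as -1.33 (SE 0.15, adjusted p = 7.39e-06) and 0.63 (SE 0.17, adjusted p = 0.0186), and endothelial Nppb as -1.95 (SE 0.52, adjusted p = 0.00820) from E12.5 to E14.5. The second Nppa call was lost without E14.5 replicate 1 (0.66, adjusted p = 0.0574), E14.5 replicate 2 (0.60, adjusted p = 0.0548) or E16.5 replicate 1 (0.46, adjusted p = 0.256). The Nppb call was lost with DESeq2 (adjusted p = 0.0787) and without E14.5 replicate 1 (-1.07, adjusted p = 0.182), and leaving out 1 library moved its value between -3.44 and -1.07. In these steps 37.0% and 16.8% of all genes passed, and 3 members in each. With expected free RNA counts subtracted, neither peptide gene had enough endothelial counts left for these tests, and 1 call of the first step (Npr1) and 2 of the second (Npr2 and Npr3) were left. Endothelial Nppb did not exceed 2.37 CPM in any tested heart. At P3 endothelial Nppa was 164 CPM (158 to 170) and mesenchymal-like Nppa 191 CPM (184 to 198), near each other, and the erythroid barcodes of that matrix had 300 CPM (282 to 319). Free RNA was not measurable there.

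Nppc was scarce in the heart, and its endothelial UMIs lay in few barcodes. Endothelial sums had 6.91 and 2.37 CPM at E12.5, 4.48 and 1.42 CPM at E14.5, and 5.51 and 5.03 CPM at E16.5, against at most 0.15 CPM in ventricular and 0.30 CPM in atrial barcodes. Epicardial-like sums had 1.97 and 0.848, 3.35 and 1.09, and 2.79 and 4.46 CPM at these stages, from at most 8 UMIs each, and 1.30% to 5.56% of their barcodes had an Nppc UMI against 0.795% to 2.46% of endothelial ones. The endothelial libraries lay above all myocyte ones, and Nppc passed the endothelial minus ventricular test (adjusted p = 1.45e-12), where 83.8% of all genes and all 6 members did. Among the fitted sums, only endothelial ones held 10 Nppc UMIs or more. Nppc thus passed the count filter through the class where it is high, and the call adds no support beyond the counts. No fold is given, because the ventricular barcodes of a stage held 3 UMIs in all at E14.5 and 0 at E16.5. The endothelial UMIs numbered 136 and 53 at E12.5, then 42 and 10 in the E14.5 libraries and 42 and 27 in those of E16.5, and the E14.5 minus E12.5 difference was -0.61 (SE 0.46, adjusted p = 0.316). That step passed with the endothelial gate at 10 UMIs (-1.73, adjusted p = 0.00334), as did the next one (1.99, adjusted p = 0.00469). The first step also passed with endothelial barcodes above 300 CPM of myocyte genes left out (-1.47, adjusted p = 0.0160) and with no filter (-0.64, adjusted p = 0.0340). It was -1.22 without E12.5 replicate 2 and turned to 0.34 without E12.5 replicate 1. The endothelial Nppc UMIs came from 24 and 20, 7 and 4, and 4 and 6 barcodes, and the 3 fullest barcodes held 48.5% and 47.2% of them at E12.5 and 97.6% and 88.9% at E16.5. A level set by so few barcodes says little of endothelium as a whole. At P3 endothelial Nppc was 1.90 CPM (1.29 to 2.70) and mesenchymal-like Nppc 2.06 CPM (1.39 to 2.94).

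Receptors divided the heart differently from the peptides. Npr1 had its highest level of the tested classes in endothelial barcodes, at 27.2 and 26.7 CPM at E12.5, 40.9 and 33.6 CPM at E14.5, and 44.3 and 49.5 CPM at E16.5. Atrial barcodes had 21.5 and 17.5, 17.3 and 18.4, and 20.6 and 25.1 CPM, ventricular ones 8.69 and 8.42, 8.26 and 8.31, and 6.495 and 7.22 CPM, and mesenchymal-like ones 6.39 and 4.22, 2.96 and 4.74, and 5.22 and 6.26 CPM. The order endothelial, atrial, ventricular, mesenchymal-like held at each stage with no overlap between neighbours. In classes outside the tests, Npr1 ranged over the 6 heart libraries from 4.68 to 48.3 CPM in macrophage-like barcodes (63 UMIs in all). It ranged from 4.43 to 24.5 CPM in epicardial-like barcodes (103 UMIs in all).

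Npr1 was higher in endothelial than in ventricular barcodes by 1.99 (SE 0.06, adjusted p = 1.27e-21) and lower in mesenchymal-like than in ventricular barcodes by a difference of -1.03 (SE 0.11, adjusted p = 1.32e-09), a comparison in which 82.3% of all genes passed. It was higher in atrial than in ventricular barcodes by 0.99 (SE 0.13) at E12.5, 0.92 (SE 0.17) at E14.5 and 1.51 (SE 0.14) at E16.5, with adjusted p of 1.44e-06, 0.000114 and 1.60e-09. The change of that difference, 0.52 (SE 0.19), had an adjusted p of 0.0675, of 0.0209 with the library as a block, 0.0344 (0.67) under the mitochondrial ceilings, 0.00727 (0.72) with the loose chamber rule and 0.0343 (0.55) with chamber sums alone. Within ventricular barcodes, Npr1 passed the E12.5 minus E10.5 test as higher (adjusted p = 0.00987), but DESeq2 called no member in this step. The E10.5 sums, at 1.68 and 1.64 CPM, had 1 UMI each, too few for a fold. The exact Poisson interval of E10.5 replicate 1 reached 9.35 CPM, above both E12.5 values. The call therefore adds no support beyond these counts, and they do not show a rise. Endothelial Npr1 rose by 0.42 (SE 0.11, adjusted p = 0.00687) from E12.5 to E14.5, a rise that did not pass without E14.5 replicate 1 (0.26, adjusted p = 0.188) or with the endothelial gate at 10 UMIs (0.27, adjusted p = 0.0863). The make-up of the class changed over the stages: barcodes gated as endocardial-like numbered 765 and 901 against 45 and 54 coronary-like ones at E12.5, 260 and 188 against 183 and 197 at E14.5, and 111 and 76 against 226 and 215 at E16.5. The part of this make-up in the Npr1 rise was not tested. At P3 the endothelial level was 50.01 CPM (46.6 to 53.6), the atrial one 11.6 CPM (10.1 to 13.3) and the ventricular one 2.06 CPM (1.78 to 2.38).

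**Figure D4:**
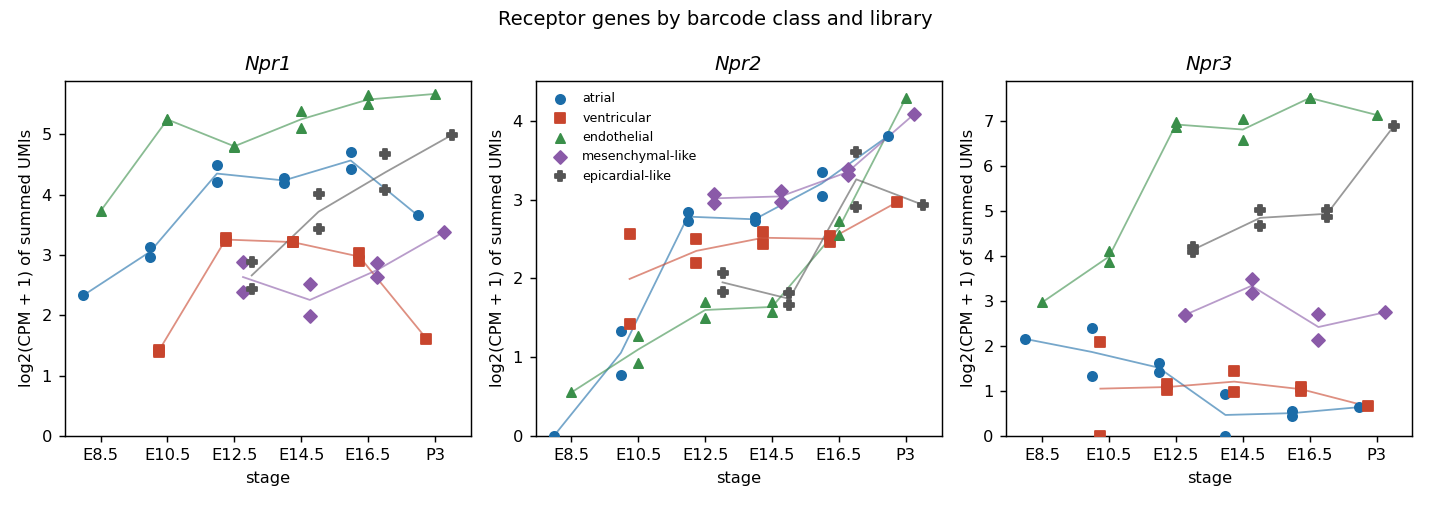
Npr1, Npr2 and Npr3 levels by stage, as log2(CPM + 1) of UMIs summed over the barcodes of a class. Each point is 1 library with at least 20 barcodes of the class, and lines join stage means. Endothelial Npr3 lies at 93.5 to 181 CPM in the E12.5 to E16.5 hearts, far above myocytes, and the classes of Npr2 lie close together.

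Npr3, the clearance receptor, had its highest levels of the tested classes in endothelial barcodes in the hearts of E12.5 to E16.5. Endothelial barcodes had 13.6 and 16.1 CPM at E10.5, 116 and 124 CPM at E12.5, 131 and 93.5 CPM at E14.5, and 181 and 181 CPM at E16.5, while no ventricular sum of the hearts exceeded 1.72 CPM and no atrial one 2.05 CPM. In each of these 6 heart libraries the endothelial sum lay above the atrial, ventricular, mesenchymal-like and epicardial-like ones, while barcodes that passed both the myocyte and the endothelial gate had 95.1 CPM in E14.5 replicate 2. The endothelial minus ventricular difference was 6.66 (SE 0.09, adjusted p = 7.99e-30) and the endothelial minus mesenchymal-like difference 4.59 (SE 0.10, adjusted p = 2.07e-24). In the latter comparison 67.7% of all genes and 4 members passed the test. Endothelial barcodes held 73.7% to 88.2% of the Npr3 UMIs of the tested hearts and 84.5% at P3. Endothelial Npr3 rose by 0.67 (SE 0.12, adjusted p = 0.00121) from E14.5 to E16.5 while endocardial-like barcodes, the Npr3-rich ones, became a smaller part of the class.

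Within endothelium the 2 receptors of the myocyte peptides parted. Endothelial barcodes were called endocardial-like where Nfatc1, Hapln1, Vwc2, Adgrg6, Nrg1 and Cdh11 UMIs numbered at least 2 and at least 2 times those of Fabp4, Cd36, Cav1, Apln, Ly6c1 and Aqp1, and coronary-like where the reverse held. Endocardial-like Npr3 stood at 130 and 137 CPM at E12.5, 228 and 189 CPM at E14.5, and 444 and 413 CPM at E16.5, with 743 CPM (665 to 828) in the 31 such barcodes of P3, of which those ending in 1 had 491 CPM and those ending in 2 had 930.1 CPM. Coronary-like Npr3 stood at 13.1 and 36.6, 20.03 and 19.0, and 26.8 and 46.1 CPM, with 42.8 CPM (39.4 to 46.5) at P3. The endocardial-like libraries were higher throughout the hearts, and the difference was 3.02 (SE 0.13, adjusted p = 2.68e-14).

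Npr1 went the other way by a small step. Endocardial-like Npr1 was 25.9 and 26.7 CPM at E12.5, 38.1 and 32.3 CPM at E14.5, and 41.2 and 57.8 CPM at E16.5, against 45.4 and 45.1, 43.0 and 36.2, and 52.4 and 54.4 CPM in coronary-like barcodes. The subclasses were apart at E12.5 and overlapped at E14.5 and E16.5, and the mean difference was -0.51 (SE 0.10, adjusted p = 0.000155). In this comparison 47.2% of 11137 genes and 2 members passed. After thinning to 2000 UMIs, 1.70% to 10.53% of endocardial-like barcodes of these hearts had UMIs of both Npr1 and Npr3. The E10.5 samples were embryos without head and limbs, so neither gate is limited to endothelium of the heart there. In them Npr3 was 13.2 and 19.6 CPM in endocardial-like and 46.6 and 45.9 CPM in coronary-like barcodes. This opposite order is between gates applied to embryo endothelium, not between the heart subclasses.

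**Figure D5:**
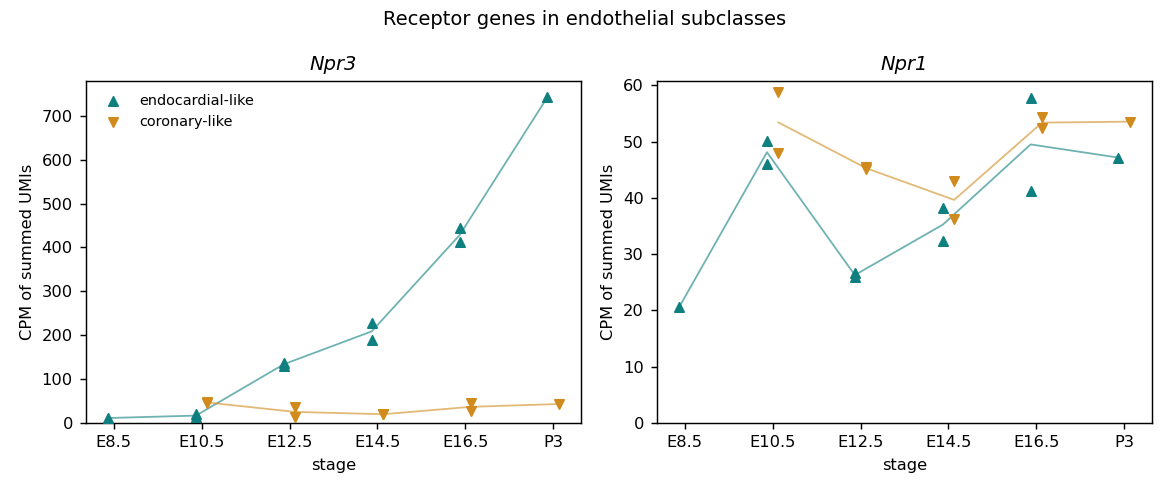
Npr3 (left) and Npr1 (right) in endocardial-like and coronary-like endothelial barcodes by stage, in CPM of summed UMIs. Each point is 1 library with at least 20 such barcodes and lines join stage means. Endocardial-like Npr3 goes from 130 and 137 CPM at E12.5 to 743 CPM at P3, while coronary-like Npr3 stays between 13.1 and 46.1 CPM in the embryonic hearts.

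Npr3 was also found outside endothelium. Epicardial-like barcodes, gated on Upk3b, Upk1b, Krt19, Wt1 and Msln, had 16.01 and 17.2 CPM at E12.5, 24.3 and 31.5 CPM at E14.5, and 27.9 and 31.2 CPM at E16.5. At P3 they had 117 CPM (87.7 to 153) from 24 barcodes, with 63.1 CPM in those ending in 1 and 186 CPM in those ending in 2. Mesenchymal-like barcodes had 5.38 and 5.45, 10.2 and 8.08, and 3.35 and 5.54 CPM, higher than ventricular ones by 2.07 (SE 0.18, adjusted p = 1.96e-11). Both classes were thus above the atrial and ventricular barcodes and below the sum of all endothelial barcodes in each embryonic heart library. Against coronary-like barcodes alone, epicardial-like Npr3 was higher in E12.5 replicate 1, both E14.5 libraries and E16.5 replicate 1. It was lower in E12.5 replicate 2 and E16.5 replicate 2.

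Npr2 was low and the most even of the receptors over the atrial, ventricular, endothelial and mesenchymal-like classes. Mesenchymal-like barcodes had 7.40 and 6.79 CPM at E12.5, 7.62 and 6.85 CPM at E14.5, and 9.44 and 8.94 CPM at E16.5. Atrial barcodes had 6.15 and 5.63, 5.84 and 5.61, and 7.29 and 9.22 CPM, and ventricular ones 3.59 and 4.65, 5.02 and 4.43, and 4.52 and 4.80 CPM. Mesenchymal-like libraries lay above ventricular ones at each stage, by 0.48 (SE 0.09, adjusted p = 3.28e-05), and atrial ones lay above ventricular ones by 0.33 (SE 0.11, adjusted p = 0.0163) at the mean. By stage, the atrial difference was 0.31 (adjusted p = 0.227) at E12.5, 0.095 (adjusted p = 0.824) at E14.5 and 0.59 (adjusted p = 0.00982) at E16.5, and the last call was lost without E16.5 replicate 1 (adjusted p = 0.0577) or E16.5 replicate 2 (adjusted p = 0.150). The E12.5 difference passed with library totals (0.50, adjusted p = 0.0389) and under the mitochondrial ceilings (0.77, adjusted p = 0.00853), and with 1 library left out it ranged from 0.087 (without E12.5 replicate 1) to 0.57 (without E12.5 replicate 2). The atrial call was lost with no filter on low counts (0.28, adjusted p = 0.0815) and without E12.5 replicate 1 (0.26, adjusted p = 0.0973), E14.5 replicate 1 (0.35, adjusted p = 0.0914) or E14.5 replicate 2 (0.31, adjusted p = 0.0652).

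Endothelial Npr2 was 1.83 and 2.24 CPM at E12.5, 2.24 and 1.99 CPM at E14.5, and 5.65 and 4.84 CPM at E16.5. Both E16.5 libraries lay above all earlier ones, and the rise from E14.5 was 1.30 (SE 0.30, adjusted p = 0.00659). It was not called by DESeq2 (adjusted p = 0.0590) or without E16.5 replicate 1 (1.15, adjusted p = 0.102). At the mean of the 3 stages Npr2 was lower in endothelial than in ventricular barcodes, by -0.87 (SE 0.11, adjusted p = 2.33e-08). At E16.5 the endothelial libraries were near the ventricular ones of 4.52 and 4.80 CPM. Their exact Poisson intervals, 4.09 to 7.60 and 3.16 to 7.10 CPM, held both of these values. The mean thus joins stages with unlike gaps, and no order is shown at E16.5. Levels in CPM use library totals, which move the median of all genes in this comparison by 0.207 against TMM. At P3 the endothelial level was 18.6 CPM (16.54 to 20.8), the mesenchymal-like one 16.01 CPM (14.02 to 18.2), the atrial one 13.02 CPM (11.4 to 14.8) and the ventricular one 6.82 CPM (6.30 to 7.37). Barcodes ending in 1 and in 2 had 21.1 and 15.6 CPM in the endothelial and 22.8 and 11.6 CPM in the mesenchymal-like class. They had 13.9 and 11.4 CPM in the atrial and 6.88 and 6.66 CPM in the ventricular class. The order of the endothelial and mesenchymal-like classes thus differed between the sets. Macrophage-like barcodes had no Npr2 UMI in any of the 6 tested heart libraries. Epicardial-like and mural-like ones reached 11.2 and 11.4 CPM, from 42 and 46 UMIs in all. Within E16.5 endothelium, endocardial-like barcodes had 10.1 and 8.06 CPM (15 and 6 UMIs) and coronary-like ones 3.00 and 2.54 CPM (13 and 8 UMIs). The mean subclass difference over the 3 stages did not pass the edgeR test (adjusted p = 0.0584). At E8.5 Npr2 was not detected in the 79 atrial-gate barcodes, where 3 UMIs, the limit taken for a count of 0, would be 1.72 CPM (exact Poisson upper bound 2.12 CPM).

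The genes that process and break down the peptides were described from a list of 6. Corin, the protease of myocytes that cuts pro-atrial natriuretic peptide, was 32.1 and 26.5 CPM at E12.5, 43.1 and 42.4 CPM at E14.5, and 83.8 and 82.5 CPM at E16.5 in atrial barcodes. In ventricular barcodes it was 7.23 and 8.53, 13.1 and 13.1, and 35.6 and 34.5 CPM. Atrial libraries lay above ventricular ones at each stage, by 1.41 (SE 0.07, adjusted p = 4.75e-16) at the mean. The chamber gap in Corin narrowed by -0.66 (SE 0.16, adjusted p = 0.00428) from E12.5 to E16.5 while that in Nppa widened. Of the 5 tested genes of this list, Corin and Furin (0.60) were higher in atrial barcodes, and Pcsk6 (-4.81), Mme (-0.86) and Ide (-0.78) were lower, in a comparison where 50.8% of all genes passed, 18.8% as higher and 32.0% as lower. Mme codes for neprilysin, which degrades the peptides. The median of the list was -0.78, beside -0.10 for all genes, and Ostn, whose product binds Npr3, had no UMI in atrial, ventricular or endothelial barcodes of the tested libraries.

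Of 11 genes of the cGMP pathway (cyclases, kinases, phosphodiesterases and targets of the kinase), 7 were higher and 1 lower in atrial than in ventricular barcodes, with a list median of 0.53, where 18.8% of all genes were higher and 32.0% lower. With library totals in place of TMM factors, the part of the called genes that was higher went from 37.0% to 67.7%. The higher ones included Pde2a (3.17, SE 0.43), Gucy1a3 (2.37, SE 0.07) and Pde9a (2.23, SE 0.21), a phosphodiesterase that acts on cGMP, and the lower one was Pln (-2.55, SE 0.07), a calcium pump inhibitor that the kinase can phosphorylate. Pde2a, a phosphodiesterase that cGMP stimulates, was 18.8 and 23.0 CPM at E14.5 and 30.7 and 36.1 CPM at E16.5 in endothelial barcodes, where ventricular barcodes had at most 0.758 CPM in the tested hearts. Its endothelial minus ventricular difference was 5.57 (SE 0.18, adjusted p = 1.27e-20), and 5 genes of the list were higher and 2 lower in that comparison, beside 40.2% and 43.6% of all genes.

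Of 10 transcription factors known at the locus, 8 were higher and 2 lower in atrial than in ventricular barcodes, with a list median of 0.22, beside the 18.8% and 32.0% of all genes. The higher ones ranged from Nkx2-5 (0.15, SE 0.05) to Tbx5 (2.34, SE 0.05), and the lower ones were Hey2 (-5.50, SE 0.12) and Gata4 (-0.20, SE 0.07). Scaling to library totals moves the median of all genes in the atrial minus ventricular mean by 0.198, which is about the size of the Gata4 difference and opposite to it. Between E12.5 and E16.5 the atrial minus ventricular difference of 2 of these factors rose, of 2 fell and of 6 did not pass the test, where 12.9% of all genes passed. It rose for Tbx2 (1.30, SE 0.32) and Tbx5 (1.22, SE 0.12), and it fell for Hey2 (-2.003, SE 0.45) and Hand2 (-0.53, SE 0.14).

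Over 47 sums of libraries and classes from the hearts of E12.5 to E16.5, 7218 genes with a mean of at least 10 CPM were ranked by the Pearson correlation of log2(CPM + 1) with each member. The sums of a library share its depth and its free RNA, and the values are given as a description. Nppa was most like Myh6 (0.965), Bmp10 (0.959) and Myl4 (0.949), which are genes of atrial or trabecular myocytes, and Nppb was most like Tcap (0.963), Actn2 (0.958) and Actc1 (0.958), which are genes of the sarcomere. Npr1 was most like Scarb1 (0.867), Man1c1 (0.860) and F11r (0.855), and Npr2 like Me1 (0.913), Msantd3 (0.904) and Bend5 (0.896). Npr3 was most like Adgrg6 (0.953), which is 1 of the endocardial gate genes, Wnt4 (0.911) and Tek (0.909), an endothelial receptor kinase. For Nppc, the likest genes were Prr15 (0.871), Npr3 itself (0.846) and Adgrg6 (0.842). These values do not place Nppc in endocardial-like barcodes. Both E16.5 libraries had 0 Nppc UMIs in that subclass, while coronary-like barcodes had 9.46 and 7.95 CPM (41 and 25 UMIs). Endocardial-like levels were 4.42 and 1.16 CPM in the E12.5 libraries, against 17.7 and 1.70 CPM in coronary-like ones (23 and 2 UMIs). The E14.5 libraries had 0.267 and 2.81 CPM in endocardial-like against 0.495 and 0.566 CPM in coronary-like barcodes. Few barcodes held these UMIs.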

How the data were processed

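Single cells were sequenced with 10x Genomics 3′ kits and, per the labels, processed by the authors with Cell Ranger 2.1.1 and Seurat 3.1.1 on mm10, whereas file headers name Cell Ranger 3.1.0 (3.0.0 for P3). Deposited values are UMI counts per gene and barcode, not normalized. Of 13 records, 10 matrices were analysed. No doublet caller was run.

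Counts were summed per library and class and tested with edgeR 4.0.16 (R 4.3.3, quasi-likelihood F test, TMM, filterByExpr, Benjamini-Hochberg over all genes tested, threshold 0.05). SE is the log2 difference divided by the square root of F. Folds need at least 10 UMIs per stage and class. The fits were tested on simulated data: of unchanged genes 0.139% were called, and of genes changed by 2 on the log2 scale 100%, in the atrial minus ventricular mean over 12416 genes. The simulated sums were independent, with the same mean profile for all classes and stages, a fixed spread and few changed genes. In the real comparison 50.8% of genes passed and sums of a library are paired, so the simulation does not measure its rate of false calls. DESeq2 1.42.0 was an alternative. Class sums of a library are paired by design, so library blocks were an alternative.

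Labels number the replicates of a stage but name no separate animals, so p-values measure the spread between libraries, which may be technical. Named genes were the members, the lists and the 3 likest genes. Members and lists were chosen with earlier results of these data known.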

Additional observations from a re-analysis of the deposited data

Results flagged for a closer look

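The change of the atrial minus ventricular difference from E12.5 to E16.5 was tested as such, and it passed for Nppa (4.13 on the log2 scale, SE 0.19, adjusted p = 1.19e-14) and for Nppb (2.88, SE 0.31, adjusted p = 1.50e-07). Nppa and Nppb kept these calls in every alternative that was run. Median mitochondrial shares of the ventricular sums were 5.15% and 5.45% at E12.5 and 10.8% and 11.2% at E16.5, against 6.28% and 6.29% and 7.07% and 7.96% in the atrial sums. Barcodes under 1% mitochondrial UMIs were 35.5% and 35.0% of ventricular ones at E12.5 and 6.26% and 4.73% at E16.5. Of atrial barcodes they were 24.5% and 28.2%, then 27.5% and 21.4%. The part of mitochondrial shares in the result was not tested.

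Nppc was also found in barcodes that no comparison used. At E10.5, barcodes outside the erythroid, myocyte and endothelial gates held 1029 and 993 Nppc UMIs in 539 and 511 of 13230 and 12866 barcodes, and the endothelial barcodes, 998 and 973 in number, held 68 and 95. As levels these were 5.09 and 5.00 CPM outside the gates against 2.67 and 3.87 CPM in endothelial barcodes, and the shares of barcodes with an Nppc UMI were 4.07% and 3.97% against 3.21% and 5.14%. Those with at least 3 Nppc UMIs (111 and 118 barcodes) had Msx3 at 309 and 297 CPM, against 30.5 and 27.7 CPM in those with none. Fabp7 was at 469 and 443 CPM against 66.7 and 62.5 CPM, and Olig3 at 82.2 and 69.3 CPM against 7.88 and 6.75 CPM. These genes were chosen after their values were seen. Msx3 and Olig3 are known from the dorsal neural tube, which the embryo samples still hold. At E8.5, 62 Nppc UMIs lay outside the gates and 37 in endothelial barcodes.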

How the results depend on the processing

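Each tested comparison was recomputed under up to 25 alternatives, of which 3 were chosen after seeing the data (barcodes under 1% mitochondrial UMIs left out, endothelial barcodes above 300 CPM of myocyte genes left out, chamber sums alone). The number of members passing moved by over 1.5 times in these cases. With DESeq2 it was 1 in place of 2 for the chamber difference at E12.5, 0 in place of 2 for ventricular E12.5 minus E10.5 and 1 in place of 2 for ventricular E14.5 minus E12.5. It was 5 in place of 3 for the chamber mean under the loose chamber rule, 5 in place of 2 for endocardial-like minus coronary-like under the endothelial rule alone, and 1 in place of 3 for endothelial E14.5 minus E12.5 with free RNA subtracted. For ventricular E16.5 minus E14.5 it was 1 in place of 0 under library totals (Npr1, -0.28) and under the mitochondrial ceilings (Nppa, 0.42). With 1 library left out, the counts ranged from 2 to 4 for endocardial-like minus coronary-like (4 without E12.5 replicate 2), 1 to 2 for ventricular E12.5 minus E10.5 (1 without E10.5 replicate 1), 1 to 2 for atrial E14.5 minus E12.5 (2 without E14.5 replicate 2) and 1 to 3 for endothelial E16.5 minus E14.5 (1 without E16.5 replicate 1).

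Signs turned in small differences or those of few UMIs. Under the mitochondrial ceilings, Nppa at E12.5 became 0.32 (chamber), Npr2 -0.12 (chamber change), Nppb -1.48 (ventricular E12.5 minus E10.5, adjusted p = 0.000315) and Nppb 0.11 (atrial E14.5 minus E12.5). Endocardial-like minus coronary-like Nppa became -0.025 with the myocyte gate at 2000 CPM and -1.74 (adjusted p = 2.06e-05) under the endothelial rule alone, and ranged from -0.10 to 0.30 with 1 library left out. Ventricular Nppb became -0.047 (E12.5 minus E10.5) and -0.14 (E16.5 minus E14.5) under library totals, -0.16 (E12.5 minus E10.5) with the endothelial gate at 10 UMIs and -0.046 (E16.5 minus E14.5) under the strict chamber rule, and ranged from -0.60 to 1.54 and from -0.12 to 0.21 with 1 library left out. Ventricular Npr2 became -0.033 (E16.5 minus E14.5, library totals), and ventricular Npr3 ranged from -0.29 to 0.57 and from -0.54 to 0.31 over leave-one-out fits of the later steps. In atrial E14.5 minus E12.5, Npr2 became 0.032 (minimum of 5000 UMIs), 0.015 (myocyte gate at 2000 CPM), 0.059 (loose rule) and 0.11 (barcodes under 1% mitochondrial UMIs left out), and the leave-one-out ranges were -0.11 to 0.051 for Npr2, -0.29 to 0.041 for Npr1 and -1.27 to 0.48 for Nppb. In endothelial E14.5 minus E12.5, Npr2 became 0.059 (library totals), 0.033 and 0.0087 (myocyte gate at 500 and 2000 CPM), 0.17 (endothelial gate at 10 UMIs), 0.017 (1% mitochondrial) and 0.034 (300 CPM), with leave-one-out ranges of -0.12 to 0.14 for Npr2, -1.74 to 0.34 for Nppc and -0.42 to 0.068 for Npr3. The cause of these changes was not tested.

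Counts of all genes called moved by over 1.5 times in some fits. DESeq2 called 268 in place of 875 genes (atrial E14.5 minus E12.5), 606 in place of 1391 (atrial E16.5 minus E14.5), 2716 in place of 4476 (endothelial E14.5 minus E12.5) and 1141 in place of 2028 (endothelial E16.5 minus E14.5). The ceilings gave 864 in place of 2211 genes (ventricular E12.5 minus E10.5) and the loose rule 1639 in place of 875 (atrial E14.5 minus E12.5). With fewer libraries, the counts fell from 4154 to 1973 (chamber, E14.5), from 5219 to 3038 and from 5630 to 3488 (later ventricular steps), and from 875 to 279 and from 1391 to 687 (later atrial steps) without E14.5 replicate 1, from 1740 to 919 (chamber change) and from 2028 to 745 (endothelial E16.5 minus E14.5) without E16.5 replicate 1, from 4640 to 2608 (chamber, E16.5) without E16.5 replicate 2, and from 2211 to 1172 (ventricular) and from 3782 to 2520 (atrial) for E12.5 minus E10.5 without E10.5 replicate 1. Library totals in place of TMM moved the share of higher calls from 37.0% to 67.7% in the chamber mean, from 43.0% to 72.3% at E12.5, from 38.3% to 64.3% at E14.5 and from 36.8% to 67.1% at E16.5. It went from 48.0% to 62.1% for mesenchymal-like minus ventricular, 44.8% to 62.1% for endocardial-like minus coronary-like, 60.8% to 39.4% and 49.0% to 21.6% for the first and last ventricular steps, and 60.4% to 26.7% for atrial E16.5 minus E14.5.

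Stage libraries share only a number: their deviations correlated at -0.026 to 0.106, and the replicate block left the counts of members called in the stage comparisons as they were. In class comparisons the library block gave 4 in place of 3 members for the chamber mean, 3 in place of 2 for the chamber change and 3 in place of 2 for endocardial-like minus coronary-like. E8.5 and P3 have no replicate, and levels under 3 UMIs per sum are below what the depth can show.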
